A study of Mus musculus with 8 samples.

Results

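The small RNA silencing machinery of the mouse oocyte was followed through 10 genes, chosen by symbol: the Argonautes Ago1, Ago2, Ago3 and Ago4, the TNRC6 genes Tnrc6a, Tnrc6b and Tnrc6c, and the processing genes Dicer1, Drosha and Dgcr8. Among the 46078 genes of the count table, 11 rows carry these names, because Dgcr8 has a second row with 0 counts in all 8 libraries that is not described further. All 10 genes passed the filter on low counts (0.2 CPM, read counts scaled to a common library total, reached in 2 or more libraries) and were among the 19241 genes tested.

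MicroRNAs and small interfering RNAs (siRNAs) guide silencing complexes to complementary messages. In the nucleus Drosha, an RNase III enzyme, and its RNA-binding partner DGCR8 cut microRNA hairpins out of long transcripts. In the cytoplasm Dicer cuts hairpins and long double-stranded RNA into short duplexes, and an Argonaute protein keeps a single strand of each as its guide. AGO2 is the Argonaute best known for cutting a perfectly matched target, while partly matched targets are silenced through TNRC6 proteins (also called GW182), scaffolds that bind Argonaute and bring in the CCR4-NOT and PAN2-PAN3 deadenylases. CNOT7 and CNOT8 are deadenylase subunits of CCR4-NOT, so the deletion studied here removes an enzyme that TNRC6 proteins recruit. Mouse oocytes are known for weak microRNA activity and for abundant endogenous siRNAs made by a short, oocyte-specific form of Dicer that starts inside the gene, a form that counts per gene do not tell apart from full-length Dicer.

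RNA was sequenced from fully grown oocytes at the germinal vesicle (GV) stage, before meiosis resumes, in 4 CNOT7&8 KO libraries and 4 Zp3-Cre control libraries, each made from 100 oocytes. In the knockout, floxed alleles of Cnot7 and of Cnot8 were deleted by Cre recombinase under the Zp3 promoter, which is active in growing oocytes, and the controls carried Zp3-Cre. The females were 4 weeks old, had a C57BL/6J background and gave oocytes 48 h after an injection of PMSG, a gonadotropin that makes follicles grow, and cumulus cells were removed from the oocytes. The sources do not say that the libraries came from separate females, so p-values measure the spread between these libraries. With pooled oocytes, fewer cells of a type and less RNA per cell cannot be told apart.

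Counts summed to between 14943671 and 44092144 in control and between 8639444 and 26784110 in KO libraries, and 3 counts, taken as the smallest detectable signal, made between 0.068 and 0.347 CPM, for counting error only. Cnot8 lay between 154 and 197 CPM in control and between 33.1 and 36.1 CPM in KO libraries. For Cnot7 the ranges were 886 to 1049 CPM and 622 to 789 CPM, so a large part of its reads remained. By immunoblot the paper reports both proteins absent from KO oocytes. All 11 oocyte markers were over 1 CPM in every control library, and their sum was 17241 to 19451 CPM in control and 13872 to 16193 CPM in KO libraries. At an adjusted p of 0.05 in edgeR's quasi-likelihood test, 1 of the 11 was higher in KO and 6 were lower. The shares of all genes tested were 31.2% and 24.1%, and 55.2% of genes of at least 100 CPM were lower. The sum over 11 granulosa and cumulus markers was 119 to 148 CPM in control and 170 to 194 CPM in KO libraries, with 3 markers under 1 CPM in all 8, Foxl2 among them. In that sum Nr5a2 was at 48.3 to 69.3 CPM in control and 114 to 132 CPM in KO libraries, while Cyp19a1 went the other way, from 50.4 to 67.7 CPM to 23.5 to 38.0 CPM. The sum over 6 theca and blood markers was 87.5 to 109 and 75.2 to 89.0 CPM, with Hbb-bs and Hba-a1 at 0 in all 8. Almost all of it was Pecam1, at 86.7 to 108 CPM in control and 73.3 to 88.0 CPM in KO libraries. Cyp17a1 and Lhcgr stayed under 1 CPM, and Ptprc went the other way, from 0.0267 to 0.340 CPM to 0.326 to 1.11 CPM. The part of these cell type markers in the results on the silencing genes was not tested. Control replicate 1 and KO replicate 4, the deepest library of each group, stood apart: the first held the highest control value for 7 of the 10 genes and the second the highest KO value for 7 of the 10. Control replicate 1 also differed in oocyte markers. Mos was at 281 CPM there, against 661 to 786 CPM in the other controls and 158 to 341 CPM in KO libraries. Zp2 (3720 against 2271 to 2518 CPM) and Nlrp5 (2920 against 1631 to 1708 CPM) were higher there than in the other controls.

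Ago1, Ago4 and Tnrc6a were higher in KO oocytes by more than 2-fold, Tnrc6b, Dicer1 and Drosha were higher by less, Ago2 and Ago3 were lower, and Tnrc6c and Dgcr8 did not pass the test. The test was edgeR's quasi-likelihood test. P-values were adjusted by Benjamini-Hochberg over all 19241 genes, with a threshold of 0.05. Past that threshold and 2-fold, 3 of the 10 genes were higher, against 23.8% of all genes tested, and 0 were lower, against 6.56%. No member was lower by 2-fold at an unadjusted p under 0.05 either, nor in edgeR's exact test or DESeq2. Without a fold threshold, 6 were higher, against 31.2% of all genes, and 2 were lower, against 24.1%. In 4 genes (Ago1, Ago4, Tnrc6a and Dicer1) every KO library lay above every control library, a pattern seen in 27.0% of all genes, and in 1 gene, Ago2, every KO library lay below, as in 21.4% of all genes. The median log2 fold change over the 10 was 0.47, beside 0.12 over all genes tested.

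These folds are relative to TMM scaling, which centres each library on most genes, and the smaller changes depend on it. Scaling by library size alone raised all KO-over-control log2 fold changes by a median of 0.29, and TMM fitted on genes over 10 CPM raised them by 0.25. Under library size alone 40.2% of all genes were called higher and 13.6% lower, and 0 of the 10 silencing genes were called lower. The calls for Ago1, Ago4, Tnrc6a, Tnrc6b, Dicer1 and Drosha stood under each of the other scalings.

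**Figure D1:**
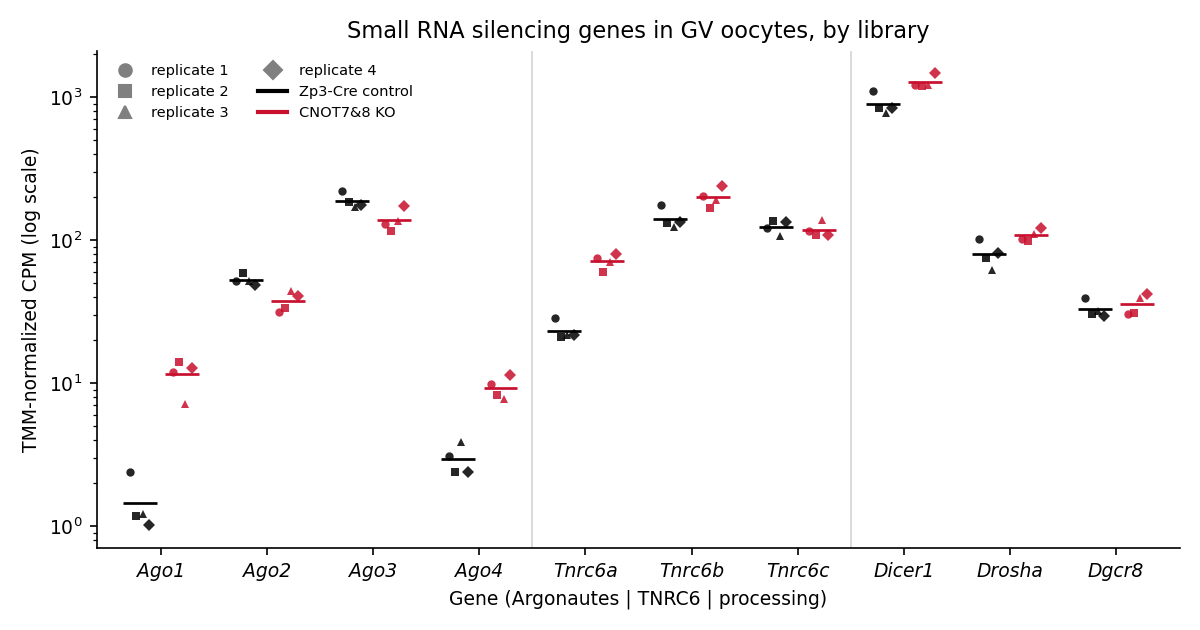
Levels of the 10 genes in CPM (TMM-scaled) on a logarithmic axis, 1 point per library, with control libraries in black, CNOT7&8 KO libraries in red, 1 symbol per replicate number and bars at the group means. The KO points of Ago1, Ago4, Tnrc6a and Dicer1 sit above all control points, those of Ago2 sit below, and the remaining 5 genes overlap.

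**Figure D2:**
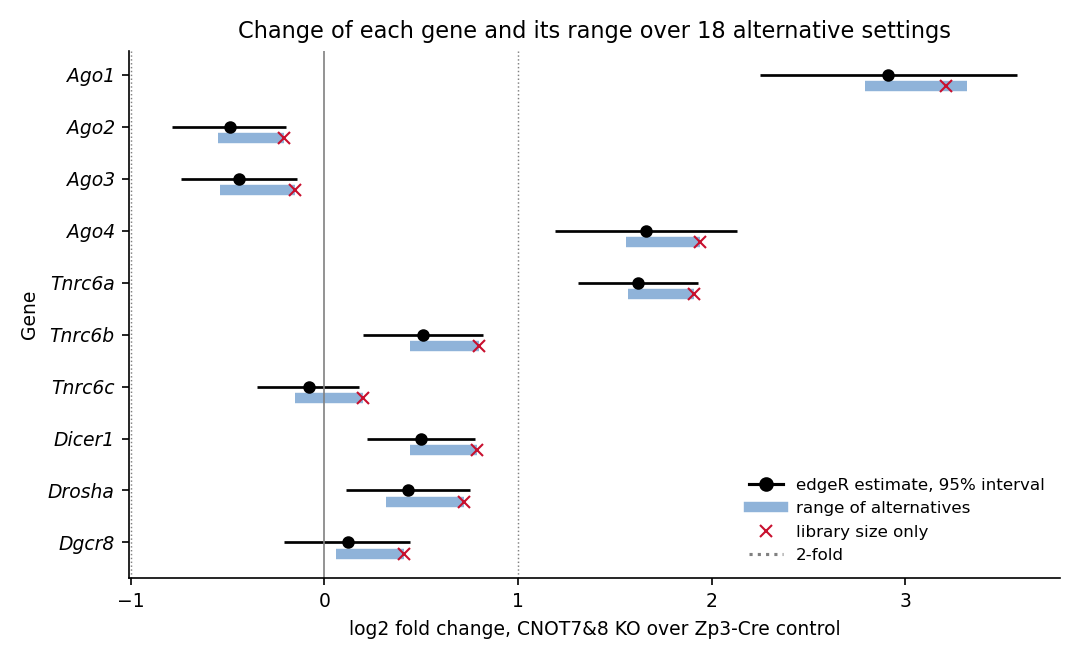
Fitted log2 fold change (KO over control) of each gene with an approximate 95% confidence interval, derived from the test statistic of edgeR's quasi-likelihood test over 4 and 4 libraries. Ago1 (2.91), Ago4 (1.66) and Tnrc6a (1.62) lie beyond the 2-fold line, and the intervals of Tnrc6c and Dgcr8 cross 0.

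Levels of different genes were compared as CPM per kilobase of exons, with a percentile among the 15453 protein-coding genes tested. In control oocytes Dicer1 stood first, at 53.3 ± 8.93 CPM per kb (SD, n = 4), percentile 93.1. Drosha followed at 13.5 ± 2.88, Ago3 at 11.4 ± 1.39 and Tnrc6c at 9.70 ± 1.05 CPM per kb, and neighbours among these 3 overlapped in their libraries. Next came Tnrc6b at 5.96 ± 1.04, then Dgcr8 at 4.28 ± 0.584 and Ago2 at 3.77 ± 0.323 CPM per kb, the last pair overlapping. Tnrc6a at 1.83 ± 0.282, Ago4 at 0.425 ± 0.101 and Ago1 at 0.180 ± 0.0785 CPM per kb closed the order without overlap, and Ago1 stood at percentile 20.8. The genes that were higher in KO by more than 2-fold were the 3 with the lowest control levels. The control level is itself part of the fold, so no conclusion is drawn from this order. Of all genes with a mean of 1 to under 10 CPM 35.7% were higher by 2-fold, against 12.7% of those of 10 to under 100 CPM.

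In KO oocytes Dicer1 (75.6 ± 7.93 CPM per kb, percentile 97.0) and Drosha (18.2 ± 1.70) kept the first places. Tnrc6c at 9.17, Tnrc6b at 8.47 and Ago3 at 8.39 CPM per kb could not be ordered, since neighbours overlapped, and the same held for Tnrc6a at 5.64 and Dgcr8 at 4.65 CPM per kb. Ago2 followed at 2.68 CPM per kb, and Ago1 at 1.42 and Ago4 at 1.34 CPM per kb overlapped at the low end. Ago1 stood at percentile 37.0 and Tnrc6a at 61.2, against 45.1 in control, so even after the increase Ago1 and Ago4 were the least abundant of the 10 per length.

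Ago4, Ago1 and Ago3 are neighbours on mouse chromosome 4 (GRCm38). All 3 are read from the minus strand, in the order Ago4, Ago1, Ago3, within a stretch of 201769 bases, with gaps of 20957 bases between Ago4 and Ago1 and 5455 bases between Ago1 and Ago3. The first pair rose and the last gene did not. The paper describes fully grown oocytes as transcriptionally quiescent, and a part of the promoters in these changes was not tested. The 250 bases upstream of each annotated start are shown, from RefSeq on GRCm38.p6. They are chr4:126533459-126533708 for Ago4, chr4:126468584-126468833 for Ago1 and chr4:126429543-126429792 for Ago3, all on the minus strand and written 5′ to 3′, with capitals marking GGGCGG, the letters of a GC box, or its complement CCGCCC.
Ago4: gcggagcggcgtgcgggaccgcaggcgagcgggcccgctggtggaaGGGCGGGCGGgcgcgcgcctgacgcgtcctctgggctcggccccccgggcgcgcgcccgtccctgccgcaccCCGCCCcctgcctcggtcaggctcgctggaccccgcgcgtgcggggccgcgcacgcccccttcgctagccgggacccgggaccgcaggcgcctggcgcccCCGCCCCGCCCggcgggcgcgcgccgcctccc
Ago1: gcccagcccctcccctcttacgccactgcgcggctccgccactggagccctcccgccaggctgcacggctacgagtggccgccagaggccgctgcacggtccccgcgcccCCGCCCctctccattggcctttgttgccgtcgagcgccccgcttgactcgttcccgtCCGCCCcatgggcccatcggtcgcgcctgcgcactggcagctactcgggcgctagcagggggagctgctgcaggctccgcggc
Ago3: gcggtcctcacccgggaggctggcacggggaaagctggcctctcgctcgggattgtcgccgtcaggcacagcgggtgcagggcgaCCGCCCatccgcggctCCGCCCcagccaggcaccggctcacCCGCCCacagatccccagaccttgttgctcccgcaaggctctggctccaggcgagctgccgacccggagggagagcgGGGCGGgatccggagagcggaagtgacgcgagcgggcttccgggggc
GGGCGG was found on either strand 5 times before Ago4, some of them overlapping, 2 times before Ago1 and 4 times before Ago3, and in 32.7% of the 32851 promoter windows of the same length in the table. CpG dinucleotides numbered 46, 28 and 27, beside a median of 6 over all windows. Ago1 has a second window in the table, chr4:126468632-126468881, which overlaps the first, with 2 GGGCGG and 26 CpG. TATAAA was in none of these windows (12.4% of all windows hold it). All 3 windows, those of the pair that rose and that of the gene that did not, held more CpG than the median window. So did the windows of the other members, among them Tnrc6c (31) and Dgcr8 (36), which were not called. Of the 10 genes, 9 had a promoter in the table, in 11 windows, and Ago2 had none.

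**Figure D3:**
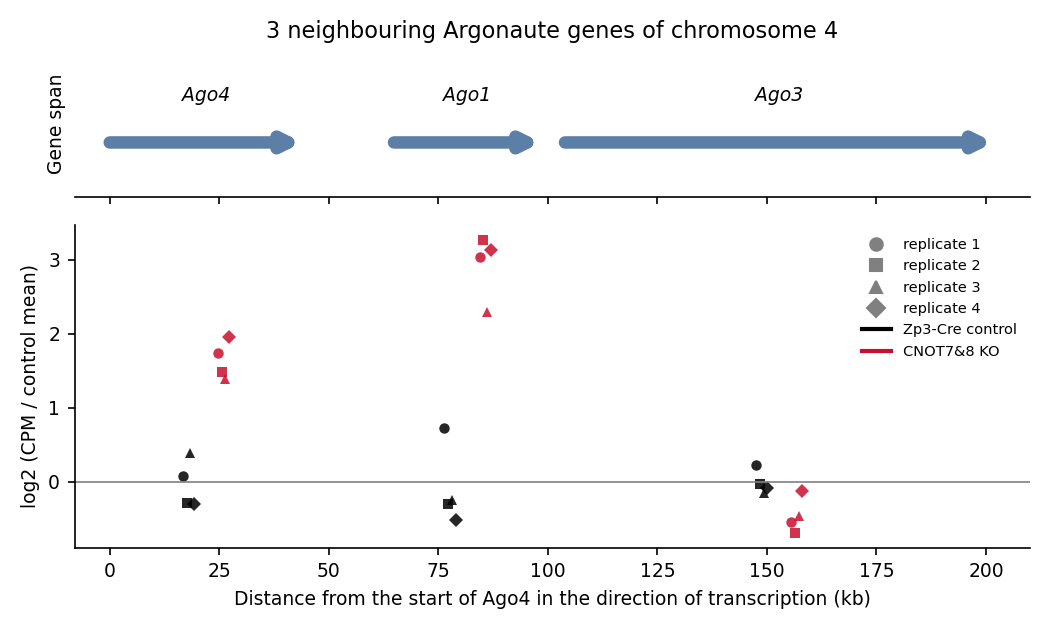
Top, the spans of Ago4, Ago1 and Ago3 along their direction of transcription, in kb from the start of Ago4. Bottom, log2 of the CPM over the control mean in each library at each gene, control in black and KO in red: all KO points of Ago4 and Ago1 lie above 1, and 3 of the 4 KO points of Ago3 lie below all control points.

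Ago1 (ENSMUSG00000041530, chr4:126435012-126468583), a microRNA-binding Argonaute, was at 2.41, 1.18, 1.22 and 1.02 CPM in control replicates 1 to 4 and at 12.1, 14.1, 7.15 and 12.8 CPM in KO replicates 1 to 4. The lowest KO library lay well above the highest control library, which was replicate 1. These values rested on 90, 24, 18 and 14 reads in control and 111, 257, 116 and 376 reads in KO libraries, so the control level was low but above the detection limit. The log2 fold change was 2.91 (SE 0.31, 95% interval 2.25 to 3.58, adjusted p = 1.06e-05 in edgeR's quasi-likelihood test). The exact two-sided permutation test over the 8 libraries gave p = 0.0286, the smallest that 4 against 4 allows.

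Ago4 (ENSMUSG00000042500, chr4:126489541-126533472), its upstream neighbour, was at 3.10, 2.42, 3.88 and 2.40 CPM in control and 9.88, 8.24, 7.71 and 11.5 CPM in KO libraries. The groups did not overlap, and the KO libraries lay within a narrow range. Its log2 fold change was 1.66 (SE 0.22, 95% interval 1.19 to 2.13, adjusted p = 5.47e-05 in edgeR's quasi-likelihood test). Ago1 and Ago4 had means of 6.5 and 6.14 CPM over all 8 libraries, and among the 5031 genes between 1 and 10 CPM 35.7% were higher by 2-fold, so increases of this kind were common at their level.

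Ago2 (ENSMUSG00000036698, chr15:73095844-73184935), the slicing Argonaute, was at 51.8, 59.2, 52.1 and 48.4 CPM in control and 31.6, 33.6, 44.3 and 40.7 CPM in KO libraries. Every KO library was lower than every control library, though KO replicate 3 came near control replicate 4. Its log2 fold change was -0.49 (SE 0.14, 95% interval -0.79 to -0.20, adjusted p = 0.00879 in edgeR's quasi-likelihood test). With library size alone the value was -0.21 (adjusted p = 0.242) and with TMM on genes over 10 CPM it was -0.24 (adjusted p = 0.152), lower in both but no longer called. Its exons share 219 bases (1.56% of them) with Chrac1 on the opposite strand, a gene at 1.82 CPM in control and 2.47 CPM in KO oocytes.

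Ago3 (ENSMUSG00000028842, chr4:126331704-126429556) was the most abundant Argonaute per length in both genotypes. It was at 222, 185, 169.9 and 178 CPM in control and 129, 117, 137 and 174 CPM in KO libraries. The groups overlapped because KO replicate 4 lay above control replicate 3, and the exact two-sided permutation test gave p = 0.0571. In edgeR's quasi-likelihood test the log2 fold change was -0.44 (SE 0.14, 95% interval -0.74 to -0.14, adjusted p = 0.0167), and it was -0.15 (adjusted p = 0.321) with library size alone and -0.19 (adjusted p = 0.196) with TMM on genes over 10 CPM. Among the 2414 genes of at least 100 CPM, where Ago3 stands, 55.2% were called lower.

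Tnrc6a (ENSMUSG00000052707, chr7:123123885-123195296), whose protein was first described as GW182, was at 28.6, 21.0, 21.6 and 21.9 CPM in control and 75.0, 60.4, 70.4 and 80.7 CPM in KO libraries. No library of either group came near the other group. Its log2 fold change was 1.62 (SE 0.14, 95% interval 1.31 to 1.93, adjusted p = 2.94e-06 in edgeR's quasi-likelihood test). Among the 6314 genes of 10 to under 100 CPM, where Tnrc6a stands with a mean of 47.4 CPM, 12.7% were higher by 2-fold. The 250 bases upstream of its start are shown beside those of Ago4 and Ago1, the other genes that rose by 2-fold. They are chr7:123123635-123123884 on the plus strand (RefSeq, GRCm38.p6), with no GGGCGG on either strand and therefore no capitals.
Tnrc6a: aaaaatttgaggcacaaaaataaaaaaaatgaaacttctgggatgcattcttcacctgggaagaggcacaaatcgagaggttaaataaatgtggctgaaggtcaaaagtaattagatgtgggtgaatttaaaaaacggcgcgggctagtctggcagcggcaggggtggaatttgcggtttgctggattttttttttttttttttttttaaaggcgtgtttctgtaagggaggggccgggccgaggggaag
This window holds 9 CpG dinucleotides and is 42.4% G or C, against 85.6% before Ago4 and 74.4% before Ago1. The 3 genes that rose by 2-fold thus differed widely in base composition upstream of their starts, and a part of this in their changes was not tested.

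Tnrc6b (ENSMUSG00000047888, chr15:80711313-80941085), a second scaffold of the same family, was at 177, 131, 123 and 133 CPM in control and 204, 169, 189 and 239 CPM in KO libraries. Control replicate 1 lay above KO replicate 2, so the groups overlapped, and the exact two-sided permutation test gave p = 0.0571. In edgeR's quasi-likelihood test the log2 fold change was 0.51 (SE 0.14, 95% interval 0.20 to 0.82, adjusted p = 0.0098), smaller than that of Tnrc6a with no overlap of the intervals.

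Tnrc6c (ENSMUSG00000025571, chr11:117654289-117763439), the most abundant TNRC6 gene per length in control oocytes, was at 121, 136, 107 and 134 CPM in control and 116, 108, 139 and 108 CPM in KO libraries. The groups overlapped over most of their range. The log2 fold change was -0.08 (SE 0.12, 95% interval -0.35 to 0.18, adjusted p = 0.593 in edgeR's quasi-likelihood test), so a change of 2-fold in either direction lay outside the interval. Its sign turned with 3 of the other scalings, to 0.20 with library size alone, without a call.

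Shares within a family do not depend on how libraries are scaled, but their sizes depend on the exon lengths used. Of the summed CPM per kb of the 4 Argonautes, Ago3 took 75.1, 70.4, 69.9 and 73.2% in control and 60.2, 56.9, 61.6 and 63.1% in KO libraries. Ago1 took 1.66, 0.918, 1.03 and 0.858% in control and 11.5, 14.1, 6.58 and 9.50% in KO libraries. Ago3 still held most of the sum in every KO library, while the share of Ago1 was higher in each KO library than in any control library.

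The mean share of Ago1 went from 1.12% ± 0.371 to 10.4% ± 3.16 and that of Ago4 from 2.72% ± 0.737 to 9.70% ± 1.11 (SD, n = 4, exact two-sided permutation p = 0.0286 and adjusted p = 0.04 for both). The mean share of Ago3 went from 72.1% ± 2.46 to 60.4% ± 2.63 with the same exact permutation p and adjusted p. That of Ago2 went from 24.0% ± 2.51 to 19.4% ± 2.90, where the groups overlapped (exact permutation p = 0.0857, adjusted p = 0.10). In control oocytes Ago3 and Ago2 made up almost all of the Argonaute sum, and in KO oocytes Ago1 and Ago4 each took a larger part of it.

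Among the TNRC6 genes, the mean share of Tnrc6a went from 10.5% ± 1.18 to 24.2% ± 1.32 and that of Tnrc6c from 55.6% ± 4.77 to 39.5% ± 4.52, without overlap (exact permutation p = 0.0286 and adjusted p = 0.04 for both). Tnrc6b took 34.0% ± 3.66 in control and 36.3% ± 3.27 in KO oocytes, with overlap (exact permutation p = 0.371, adjusted p = 0.371). P-values were adjusted over the 7 shares of both families, and shares of a family sum to a whole, so a gain in some members goes with a loss in others.

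The summed level of the 3 TNRC6 genes was 17.5 ± 1.64 CPM per kb in control and 23.3 ± 2.06 in KO oocytes (SD, n = 4), which is 133% of control, and 162% with library size alone. The summed level of the 4 Argonautes was 15.8 ± 1.5 and 13.8 ± 1.90 CPM per kb, 87.8% of control, with overlapping groups, and its direction turned with library size alone, to 107%.

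**Figure D4:**
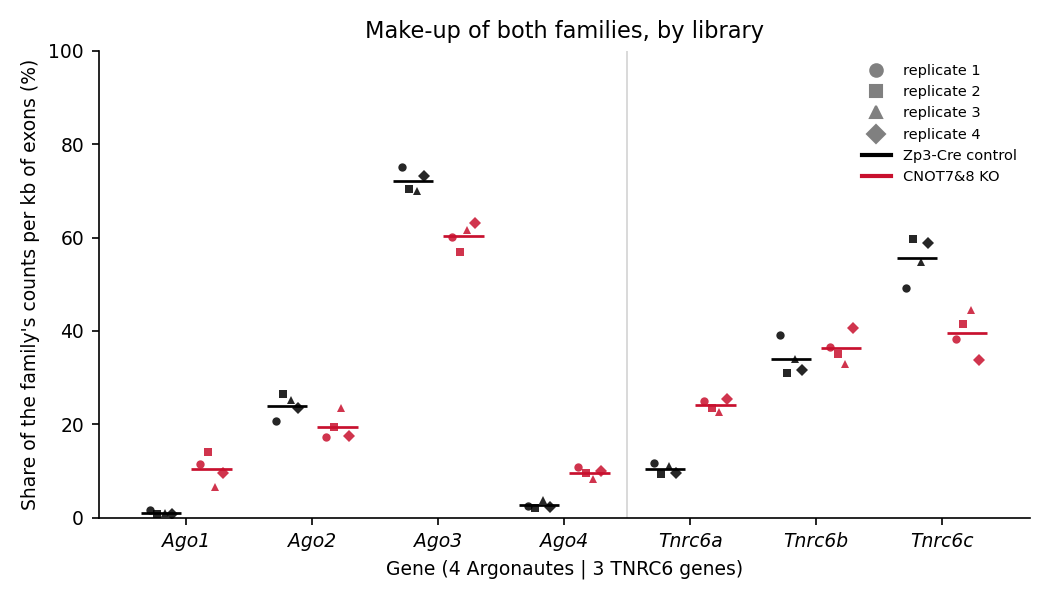
Share of each gene in the summed CPM per kb of its family in percent, 1 point per library with bars at the group means, control in black and KO in red. The shares of Ago1, Ago4 and Tnrc6a are higher and those of Ago3 and Tnrc6c lower in all KO libraries than in all control libraries, and those of Ago2 and Tnrc6b overlap.

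Dicer1 (ENSMUSG00000041415, chr12:104687742-104751952), the enzyme that makes microRNAs and siRNAs, was at 1111, 843, 773 and 841 CPM in control and 1208, 1186, 1205 and 1465 CPM in KO libraries. All KO libraries lay above all control libraries, control replicate 1 coming closest. The log2 fold change was 0.50 (SE 0.13, 95% interval 0.22 to 0.78, adjusted p = 0.00548 in edgeR's quasi-likelihood test). Of the 2414 genes of at least 100 CPM, 8.37% were called higher, Dicer1 and Tnrc6b among them.

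In a comparison chosen after its values were seen, Dicer1 was set beside the 255 genes whose mean reached 500 CPM, of which 1.57% (4 genes) were called higher. These were Txnip (0.78), Dicer1 (0.50), Esco2 (0.40) and Nobox (0.35, all log2 fold changes). Dicer1 had the second highest fold change among the 255 under each of the 7 scalings and tools compared. The number called higher was 24 of 255 with library size alone and 25 with TMM on genes over 10 CPM.

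Drosha (ENSMUSG00000022191, chr15:12824815-12935291), the nuclear enzyme, was at 102, 74.5, 61.6 and 81.9 CPM in control and 102, 98.8, 109.6 and 122 CPM in KO libraries. Control replicate 1 lay among the KO libraries, and the exact two-sided permutation test gave p = 0.0857. In edgeR's quasi-likelihood test the log2 fold change was 0.43 (SE 0.15, 95% interval 0.11 to 0.75, adjusted p = 0.0272). The call was lost without control replicate 2 (0.40, adjusted p = 0.0719), replicate 3 (0.32, adjusted p = 0.0785) or replicate 4 (0.44, adjusted p = 0.0516), and Drosha was the only gene of the 6 called higher to lose its call when a library was left out.

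Dgcr8 (ENSMUSG00000022718, chr16:18253948-18289246), the partner of Drosha, was at 39.5, 30.6, 32.3 and 29.5 CPM in control and 30.7, 31.1, 39.3 and 41.8 CPM in KO libraries. The groups overlapped, with a log2 fold change of 0.12 (SE 0.15, 95% interval -0.21 to 0.44, adjusted p = 0.522 in edgeR's quasi-likelihood test). With library size alone it was 0.41 (adjusted p = 0.0303), and with TMM on genes over 10 CPM it was 0.38 (adjusted p = 0.0288), both past the threshold. Its exons share 825 bases (10.72% of them) with Trmt2a on the opposite strand, a gene that fell from 30.1 to 19.3 CPM (log2 fold change -0.65, adjusted p = 0.00546), and the strand setting of the counting is not given in the sources used here.

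Dgcr8 also holds microRNA hairpins in its own exons, the kind of structure that the complex of Drosha and DGCR8 cuts, and the mature sequences are shown for that reason. They come from RefSeq (minus strand of chromosome 16, GRCm38.p6) and are written 5′ to 3′, with the seed (bases 2 to 8) in capitals. The first pair lies at chr16:18284288-18284310 and chr16:18284248-18284268, and the second at chr16:18284602-18284623 and chr16:18284562-18284583.
mmu-miR-1306-5p: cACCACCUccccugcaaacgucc
mmu-miR-1306-3p: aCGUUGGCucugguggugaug
mmu-miR-3618-5p: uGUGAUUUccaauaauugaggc
mmu-miR-3618-3p: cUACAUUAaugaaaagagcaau
The 4 seeds differ from each other. A further microRNA, mmu-miR-5113, lies in an exon of Tnrc6b at chr15:80940049-80940071 on the plus strand. The rows of these hairpins had 0 counts in all 8 libraries, and among 1058 microRNA rows 183 had any count. These libraries of long RNA do not measure mature microRNAs.

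The results that involve the libraries that stood apart were also computed without both. The log2 fold changes were then 3.26 for Ago1, 1.57 for Ago4, 1.67 for Tnrc6a, 0.54 for Tnrc6b, 0.55 for Dicer1, 0.51 for Drosha, -0.54 for Ago2 and -0.48 for Ago3, all 8 called in edgeR's quasi-likelihood test as before. Tnrc6c (-0.06) and Dgcr8 (0.14) stayed without a call. With 3 against 3 libraries, 6 of the 10 genes did not overlap with KO higher and 2 with KO lower, against 34.3% and 28.5% of all genes. Each library left out held the highest value of its group for 7 of the 10 genes. Less overlap without them can follow from that choice alone, so no conclusion is drawn from it.

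The other genes of the pathway were read from 6 lists of partners, 56 genes in all, every one of them tested. In edgeR's quasi-likelihood test 13 (23.2%) were higher, 25 (44.6%) were lower and 18 were not called, with a median log2 fold change of -0.27, against the 31.2% higher and 24.1% lower among all genes given above. Past the threshold and 2-fold, 6 partners were higher and 6 were lower (10.7% each), against 23.8% and 6.56% of all genes tested. With library size alone and with TMM on genes over 10 CPM the counts without a fold threshold were 21 higher and 14 lower. Which direction held more partners thus depended on the scaling.

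Of the 16 partners through which TNRC6 proteins repress targets (deadenylase, decapping and poly(A)-binding factors), 10 were lower (62.5%), 2 were higher and 4 were not called. Of the 16, 11 had a mean of at least 100 CPM, of which 9 were lower, and at that level 55.2% of all genes were lower. Pabpc1l, the poly(A)-binding protein of oocytes and early embryos, fell from 167 ± 22.4 to 52.6 ± 8.78 CPM (SD, n = 4, log2 fold change -1.67, adjusted p = 2.93e-06 in edgeR's quasi-likelihood test). Eif4enif1, the eIF4E transporter that binds DDX6, fell from 414 to 167 CPM (-1.30, adjusted p = 1.84e-05). Ddx6, an RNA helicase of translational repression, went the other way, from 45.0 ± 8.36 to 168 ± 34.4 CPM (SD, n = 4, log2 fold change 1.90, adjusted p = 3.06e-06). So did Pabpc1, a further poly(A)-binding protein of this list, named after its values were seen. It rose from 11.2 ± 4.19 to 27.0 ± 8.13 CPM (SD, n = 4, log2 fold change 1.27, adjusted p = 0.00165 in edgeR's quasi-likelihood test).

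Of the 7 genes of nuclear processing and export, 2 were higher and 2 were lower (28.6% each), and 3 were not called. Among all genes tested 31.2% were higher and 24.1% lower. Those higher, named after their values were seen, were Ncbp1, a subunit of the nuclear cap-binding complex (6.57 to 18.3 CPM, log2 fold change 1.46, adjusted p = 8.35e-05 in edgeR's quasi-likelihood test), and Ran, the GTPase of nuclear transport (55.3 to 86.3 CPM, 0.64, adjusted p = 0.000801). Those lower were Xpo5, which exports microRNA precursors (105 to 51.7 CPM, log2 fold change -1.02, adjusted p = 2.51e-05 in edgeR's quasi-likelihood test), and Ddx17, a helicase of the Drosha complex (43.0 to 18.3 CPM, -1.24, adjusted p = 3.57e-05). Of the 9 Dicer partners and double-stranded RNA-binding proteins, 1 was higher (11.1%) and 4 were lower (44.4%), between -0.71 and 1.17 on the log2 scale.

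Of the 7 genes that help load Argonautes, 2 were higher (28.6%) and 3 were lower (42.9%), none of them by 2-fold. Of the 12 regulators of Argonautes, 4 were higher (33.3%) and 3 were lower (25%). The largest change was in Ankrd52, a subunit of the phosphatase that acts on Argonaute, which rose from 14.8 ± 2.17 to 63.6 ± 15.4 CPM (SD, n = 4, log2 fold change 2.11, adjusted p = 2.95e-06 in edgeR's quasi-likelihood test). Of the 5 genes of precursor tailing and decay, 2 were higher (40%) and 3 were lower (60%), and Dis3l2, an exonuclease that degrades tailed precursors, fell from 16.4 to 7.32 CPM (-1.16, adjusted p = 5.85e-05). The shares of all genes tested were 31.2% higher and 24.1% lower. From lists this short no conclusion is drawn about a step of the pathway.

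Of 5 genes described as targets of siRNAs made from pseudogenes in mouse oocytes, Hdac1, a histone deacetylase, rose from 7.89 to 22.7 CPM (1.52, adjusted p = 1.17e-05 in edgeR's quasi-likelihood test) and Ppp4r1 from 21.3 to 29.5 CPM (0.47, adjusted p = 0.0157). Pdzd11 fell from 101 to 60.6 CPM (-0.74, adjusted p = 9.34e-05), and Rangap1 (0.19) and Kif4 (-0.30) did not pass the test. The 5 moved in no common direction, and reads shared with their pseudogene copies may make the counts uncertain.

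**Figure D5:**
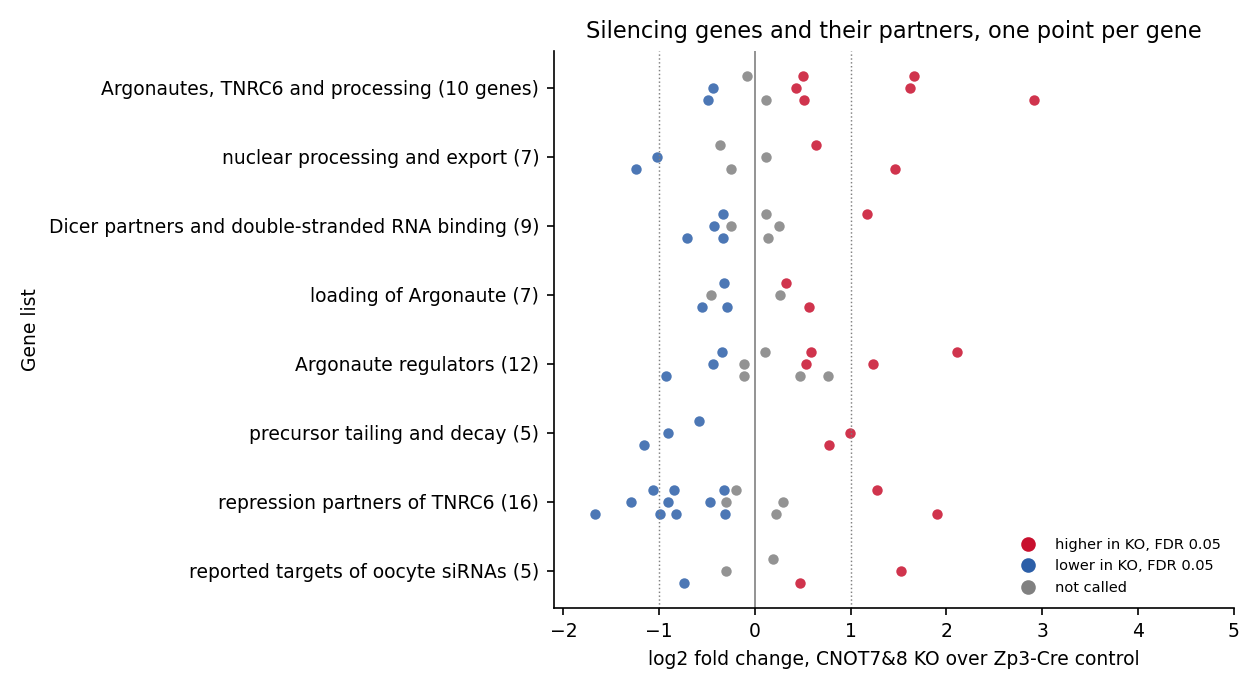
Fitted log2 fold change (KO over control) of the 10 silencing genes, of the 56 partners in 6 lists and of the 5 reported siRNA targets, 1 point per gene, red where higher and blue where lower at an adjusted p of at most 0.05 and grey where not called. In the list of repression partners of TNRC6, 10 of 16 points are blue, beside 24.1% of all genes tested and 55.2% of those of at least 100 CPM. Under library size alone 14 and not 25 of the 56 partners were lower.

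The genes with the profiles nearest to those of the members with the highest (Ago1) and the lowest (Ago2) log2 fold change were found by the root mean square difference over the 8 libraries of log2 CPM relative to the control mean, among 8728 genes of at least 10 CPM. For Ago1 these were Nipa2 (0.25), Rian (0.28) and Alkbh8 (0.31), with log2 fold changes from 2.70 to 2.98. For Ago2 they were Insig1 (0.09), Pelp1 (0.10) and Nop9 (0.10), with log2 fold changes from -0.48 to -0.45. Nearness in this measure brings a like fold change with it, so the likeness of the fold changes is not a result of its own. The nearest profiles of Ago1 were farther from it than those of Ago2 were from Ago2. Ago1, with a mean of 6.5 CPM, lay itself under the 10 CPM set for the genes compared, and no conclusion is drawn from these distances.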

How the data were processed

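Total RNA of CNOT7&8 KO and Zp3-Cre GV oocytes was sequenced in 4 libraries each. The paper names a TruSeq stranded mRNA kit and states that ribosomal RNA was depleted, while the labels name a stranded total RNA kit. Whether the counts depend on the length of poly(A) tails was not tested. The authors mapped reads to GRCm38 with STAR 2.6.1d (per the submitters' processing notes) and deposited unnormalized counts of reads on each gene. The counting tool, annotation and strand setting are not given in the sources used here. Groups and replicate numbers came from the labels, and table columns were assigned by the genotype and number in their names. The genes and lists were chosen with earlier results of these data known.

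The tools were edgeR 4.0.16 (quasi-likelihood and exact tests, TMM) and DESeq2 1.42.0 under R 4.3.3. The filter kept genes that reached 0.2 CPM in 2 or more libraries, and calls needed an adjusted p of at most 0.05, with or without a 2-fold change. CPM values are counts over TMM-scaled library sizes. Exon lengths came from GENCODE vM21, which held 98.2% of the gene identifiers, and promoters and microRNAs from RefSeq. All 10 silencing genes were named, together with up to 8 partners or siRNA targets past the threshold and 2-fold by adjusted p. Some further genes were named after their values were seen, and other partners past 2-fold were only counted. Single values were compared by exact two-sided permutation tests over 70 assignments of the libraries. On simulated counts of 18469 genes, 200 of them changed by a log2 value of 2, the quasi-likelihood test found 194 and made 3 false calls. Those 200 changes were large and went up as often as down. In the data far more genes changed, and more rose than fell by 2-fold. The simulation therefore does not test smaller changes or the TMM scaling under such a shift. Alternatives were other tools, scalings and filters, a replicate block, and leaving out each library or both that stood apart. Libraries of the same group differed by more than counting noise. Proteome, polysome and imaging experiments were not analysed here.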

Additional observations from a re-analysis of the deposited data

Results flagged for a closer look

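In 3 of 34 groups of 4 values tested, a single library lay far from the other 3 by Dixon's criterion, where chance gives about 1.7. Control replicate 1 held 2.41 CPM of Ago1 against 1.02 to 1.22 in the other controls, and 28.6 CPM of Tnrc6a against 21.0 to 21.9. KO replicate 4 held 1465 CPM of Dicer1 against 1186 to 1208 in the other KO libraries. Both are the deepest library of their group. Without both, the log2 fold changes were 3.26 for Ago1, 1.67 for Tnrc6a and 0.55 for Dicer1, in the same direction and still called in edgeR's quasi-likelihood test. Leaving out the highest control value of Ago1 and of Tnrc6a lowers their control means by that choice alone, so no conclusion is drawn from the larger folds.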

How the results depend on the processing

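The number of silencing genes higher by 2-fold, and the number higher at the threshold alone, moved by less than 1.5 times under all 18 alternatives. With library size alone and with TMM on genes over 10 CPM, 0 silencing genes were called lower, and 21 partners were higher and 14 lower. Tnrc6c turned sign with library size alone (0.20, adjusted p = 0.186), upper quartile scaling (0.01, adjusted p = 0.93) and TMM on genes over 10 CPM (0.17, adjusted p = 0.292). Leaving out each library in turn, the log2 fold change ranged from 2.79 to 3.32 for Ago1, -0.55 to -0.40 for Ago2, -0.54 to -0.34 for Ago3, 1.56 to 1.81 for Ago4, 1.57 to 1.74 for Tnrc6a, 0.44 to 0.64 for Tnrc6b, 0.44 to 0.63 for Dicer1 and 0.32 to 0.57 for Drosha, and of these 8 genes Drosha alone lost its call. The shares could not pass the threshold with a library left out, since 3 against 4 allows an exact permutation p of 0.0571 at the least. As shares of raw counts, without exon lengths, all kept their direction. KO minus control was then 5.37 percentage points for Ago1, 3.52 for Ago4 and -6.39 for Ago3, against 9.29, 6.99 and -11.7 with lengths. Same-numbered libraries did not deviate together (r = -0.072, -0.042, 0.11 and -0.121). This shows no pairing by number but cannot exclude it. The largest values were between control replicate 1 and KO replicates 4 (r = 0.372) and 3 (r = -0.331). With the replicate number as a block no call among the 10 genes changed (2.98 for Ago1, -0.45 for Ago3, 0.45 for Drosha), and 5511 of all genes were higher and 4201 lower. The depth limits Ago1 most, whose control counts were as low as 14.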
